A study of Mus musculus with 193 samples.

Results

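The genes described here encode molecular chaperones, the proteins that help other proteins fold. They were taken from the deposited expression table by symbol: a name that starts with Cct and a digit, with Hsp or with Dnaj, plus Tcp1, leaving out names that contain -ps. The rule used no measured value and took 85 of 19557 gene rows, in 3 classes: 10 chaperonin genes, 30 heat shock genes and 45 DNAJ genes. It also took in Hspg2, which encodes the matrix proteoglycan perlecan and is no chaperone, and Hspb11, which encodes a subunit of the intraflagellar transport machinery.

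The study sorted fluorescent cells from testes of mice that carry an Id4-eGFP reporter, which marks a subset of male germ cells that includes spermatogonial stem cells, and sequenced RNA from 193 single cells. There were 71 wild-type cells from postnatal day 3 (WT P3), 69 cells from postnatal day 3 labelled as Rhox10 knockout (KO P3), and 53 wild-type cells from postnatal day 7 (WT P7). Rhox10 encodes an X-linked homeobox transcription factor, and all 3 groups carry the reporter. The sample titles divide the cells into 7 lettered sets, with 16 and 55 cells in sets A and B of WT P3, 21, 12 and 36 cells in sets A, B and C of KO P3, and 12 and 41 cells in sets A and B of WT P7. No source used here gives what a letter stands for, the strain, or which part of Rhox10 was deleted.

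No animal or litter is named, so each group counts as 1 sample, and no test between groups was made and no p-value is given. A level here is the mean over the cells of a set of log2(RPM + 1), where RPM is the usual count of reads scaled to a fixed total per cell and the 1 is a pseudocount. A difference between groups is the difference between the unweighted means of their sets, and its range runs over all pairs of sets. There are 6 such pairs between KO P3 and WT P3, and 4 between the ages. A gene passed the level filter when its level, averaged over the groups compared, was at least 1. A gene under 1 in 1 group passed only through the other group, so its call could go only 1 way. A gene was called higher or lower when the difference was at least 0.5 and every pair of sets had the same sign. The pairs show how far a difference repeated between sets and are not a test. Both comparisons use the same WT P3 cells, so they are not independent of each other.

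Total reads per cell ran from 251530 to 10663507, with medians of 4425188 in WT P3, 4552353 in KO P3 and 3299782 in WT P7. Rhox10 was above 1 RPM in 15 of 21, 9 of 12 and 10 of 36 cells of KO P3 sets A, B and C. For WT P3 the counts were 10 of 16 cells of set A and 35 of 55 cells of set B. The mean Rhox10 levels of the KO P3 sets were 2.48, 2.62 and 0.83, against 1.78 and 1.49 for WT P3. KO P3 sets A and B therefore lay above either WT P3 set, and KO P3 set C lay below. Whether the cells labelled as knockout lack working Rhox10 was not tested, and the genotype is used as labelled. The germ cell genes Ddx4 and Dazl were summed above 1 RPM in all 193 cells. KO P3 set A stood apart in part of these measures: the median of the summed germ cell genes was 656.93 RPM there, against 814.914 to 1310.55 RPM in the other 6 sets. At least 1 of the 4 Sertoli cell markers (Clu, Wt1, Sox9 and Amh) was above 1 RPM in 15 of its 21 cells, with a sum of up to 1602 RPM. The same held for 8 of 12 and 14 of 36 cells of KO P3 sets B and C, 10 of 16 and 26 of 55 cells of WT P3 sets A and B, and 0 of 12 and 9 of 41 cells of WT P7 sets A and B, with sums of up to 573.758 RPM. The mean level of 20 genes of G2 phase and mitosis was 1.60 in that set and 2.54 to 4.88 in the other 6.

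Chaperones act in layers. The chaperonin CCT (also called TRiC) is a barrel of stacked rings built from 8 different subunits, in which actin, tubulin and other proteins fold. Hsp70 proteins bind short stretches of unfolded chains in an ATP-driven cycle, DNAJ proteins bring them their clients and speed up ATP hydrolysis, Hsp110 proteins and others exchange the nucleotide, and Hsp90 proteins act late on kinases and receptors. Separate Hsp70 and Hsp90 proteins serve the cytosol, the endoplasmic reticulum and the mitochondria. Male germ cells also have members of their own, such as Hspa2, which meiotic cells need.

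All 3 classes were detected, at different levels. The summed RPM of the chaperonin genes had set medians of 959.864 and 891.651 in WT P3, 680.208, 963.45 and 1251.02 in KO P3, and 1540.56 and 1618.3 in WT P7. The heat shock genes summed to 853.393 and 885.913 RPM in WT P3, 1098.07, 1271.04 and 1351.01 in KO P3, and 1441.38 and 1397.25 in WT P7. The DNAJ genes summed to 466.135 and 377.043 RPM in WT P3, 450.146, 536.891 and 511.705 in KO P3, and 502.355 and 491.929 in WT P7. The set medians of WT P7 therefore lay above those of WT P3 in each class, and those of the 3 KO P3 sets lay above WT P3 for the heat shock genes alone. As a share of the reads on genes, the median chaperonin sum was 0.820% in WT P3, 0.782% in KO P3 and 1.04% in WT P7. The heat shock sum took 0.797%, 0.908% and 0.918% and the DNAJ sum 0.365%, 0.359% and 0.328% in the same order.

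**Figure D1:**
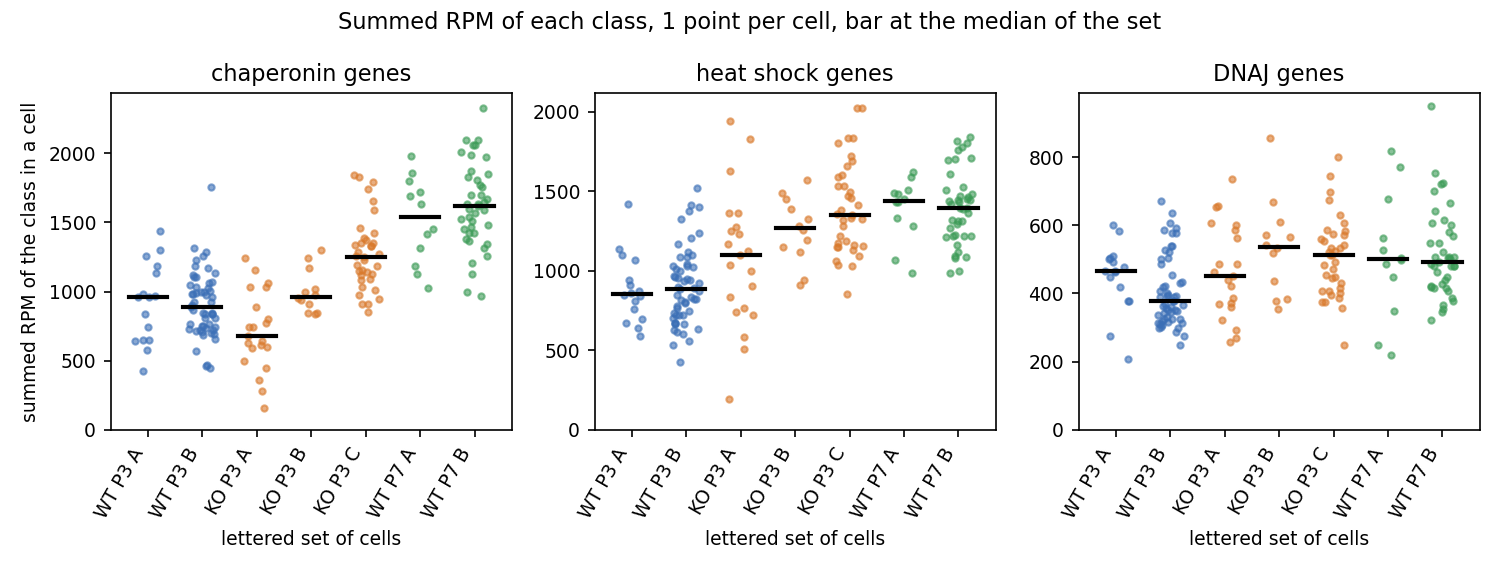
Summed RPM of the chaperonin, heat shock and DNAJ genes (1 panel per class), with 1 point per cell, cells grouped by lettered set on the horizontal axis and a bar at the median of each set. The chaperonin sums of WT P7 have medians of 1540.56 and 1618.3 RPM, above both WT P3 sets, and KO P3 set A has the lowest median, 680.208 RPM.

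Single genes carried large parts of these sums. Cct8 made up 25.4% of the chaperonin RPM in WT P3 and Cct2 made up 18.3%. Hsp90ab1, the constitutive cytosolic Hsp90, made up 42.8% of the heat shock RPM in WT P3, 45.2% in KO P3 and 42.5% in WT P7. Dnaja2, a general cytosolic partner of Hsp70, made up 23.04% of the DNAJ RPM in WT P3 and 17.6% in WT P7. Per kilobase of the longest coding transcript, Hsp90ab1 had the highest mean in WT P3 of the members with a length, 152 RPM per kb, followed by Cct8 with 97.0 and Cct2 with 85.2 RPM per kb. The genes Hspa8, Hspd1, Hspe1, Hsp90ab1 and those of the chaperonin have processed copies elsewhere in the genome, and no source used here gives how reads that align to several places were counted, so their levels may be listed too low.

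The 8 subunit genes of the CCT barrel were measured in nearly every cell. All 8 were above 1 RPM in 192 of 193 cells, and the other cell, in KO P3 set A, had 7. Tcp1, which encodes the founding subunit, had a lowest, median and highest value of 50.5, 119 and 244 RPM over WT P3 cells, 39.5, 154 and 381 RPM over KO P3 cells, and 78.5, 221 and 431 RPM over WT P7 cells. Cct5 had 22.7, 94.1 and 199 RPM over WT P3 cells, 2.64, 99.6 and 301 RPM over KO P3 cells, and 112, 212 and 456 RPM over WT P7 cells. The WT P7 median of Cct5 exceeded the highest WT P3 cell, while the ranges of single cells overlapped. The other members of the class, Cct6b (a testis form of the zeta subunit) and Cct8l1, did not pass the level filter in either comparison. Per kilobase, the means of the 7 subunits with a length differed in WT P3 from 24.4 RPM per kb for Cct4 to 97.0 for Cct8.

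At P7 the chaperonin genes were higher as a group than at P3. Of the 8 that passed the filter, 7 were called higher and 0 lower in WT P7, where 25.6% of 7669 genes tested were called higher and 10.2% lower. In all 8 subunits both WT P7 sets lay above both WT P3 sets, a pattern seen upward in 36.5% of genes tested and downward in 15.6%. The median difference of the 8 was 0.80 on the log2 scale, between 0.45 for Cct4 and 1.34 for Cct5, and the median over all genes tested was 0.17. Cct5 (chromosome 15, 31590800 to 31601804, mm10) had set levels of 6.39 ± 0.89 and 6.54 ± 0.61 (SD between cells) in WT P3 and 7.89 ± 0.50 and 7.70 ± 0.48 in WT P7. Its mean RPM was 2.39 times as high at P7. Cct7 (chromosome 6, 85451514 to 85468475) had levels of 6.38 and 6.28 in WT P3 and 7.41 and 7.19 in WT P7, a difference of 0.97 (range over pairs 0.81 to 1.12). Tcp1 (chromosome 17, 12915701 to 12925067) had levels of 6.97 and 6.84 in WT P3 and 7.75 and 7.78 in WT P7, a difference of 0.86 (0.79 to 0.94).

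The remaining subunits were higher by less at P7. The difference was 0.84 for Cct6a, 0.76 for Cct3, 0.68 for Cct2, 0.57 for Cct8 and 0.45 for Cct4, which was not called. The calls of Cct3 and Cct8 were lost without WT P7 set B, at 0.49 and 0.35, and that of Cct8 also without WT P3 set A, at 0.49. The mean level of the G2 and mitosis genes was 2.54 in set A of WT P7 and 4.88 in set B, and the median chaperonin sums were 1540.56 and 1618.3 RPM. The part of the mitotic genes in the P7 difference was not tested. Between cells, the median Pearson correlation over subunit pairs was 0.49 (0.35 to 0.69) over the 55 cells of WT P3 set B and 0.16 (-0.25 to 0.55) over the 41 cells of WT P7 set B. The chaperonin sum and the heat shock sum correlated at 0.74 and 0.35 over the same cells. These are descriptions, since RPM values of 1 cell share a denominator and a library.

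**Figure D2:**
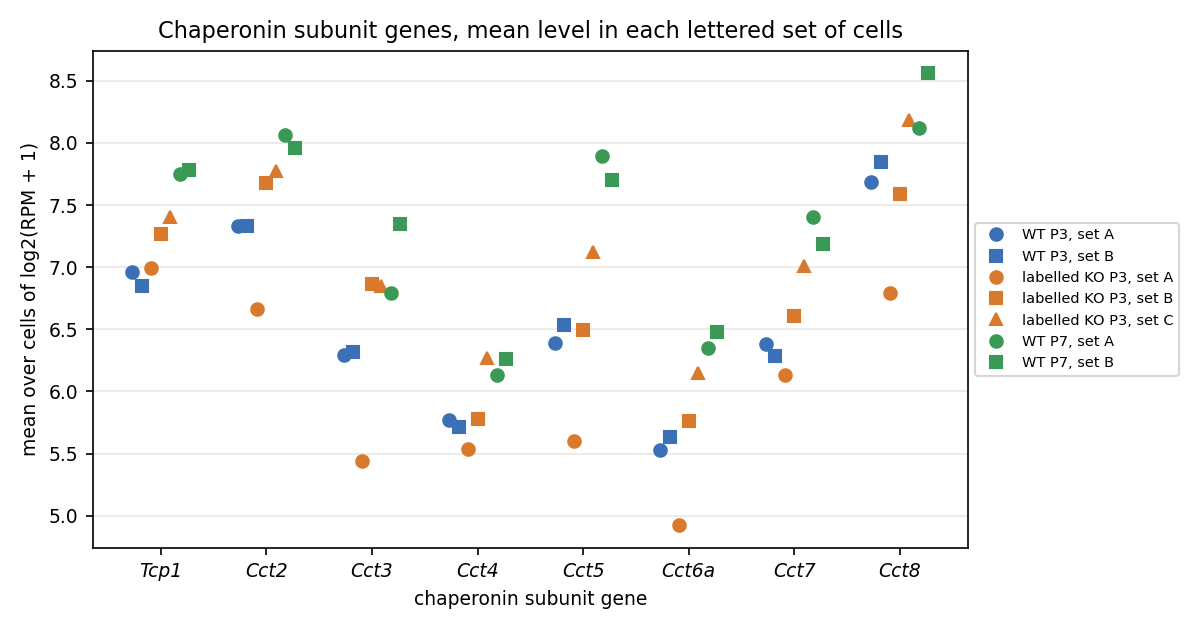
Mean over cells of log2(RPM + 1) for the 8 CCT subunit genes (horizontal axis), with 1 point per lettered set, coloured by group and shaped by letter. In each subunit both WT P7 points lie above both WT P3 points, and KO P3 set A is the lowest of the KO P3 points, as for Cct5 at 5.60.

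Between the KO P3 and WT P3 cells no direction held for the chaperonin. Of the 8 subunits, 0 were called higher and 0 lower, against 10.3% of 7892 genes tested called higher and 3.09% called lower. The median difference was 0.06, from -0.24 for Cct8 to 0.32 for Tcp1, beside 0.13 for all genes tested. Tcp1 was the 1 subunit whose 3 KO P3 sets, at 6.99, 7.27 and 7.41, all lay above both WT P3 sets, a pattern found upward in 16.8% and downward in 5.41% of genes tested. For Cct5 the KO P3 sets were at 5.60, 6.50 and 7.12, below, within and above the WT P3 levels of 6.39 and 6.54. Without KO P3 set A the median difference of the subunits was 0.38, without set B -0.07 and without set C -0.16. Set A is the set with the lowest germ cell genes and mitotic transcripts and the highest sum of Sertoli markers in a cell, and the part of these in its chaperonin levels was not tested.

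The chaperonin's partners were counted from lists of related genes, to be read against the 25.6% of all genes tested called higher and 10.2% called lower at P7 and the 10.3% and 3.09% in KO P3. Prefoldin, which hands actin and tubulin to CCT, and the cofactors of tubulin folding had 3 of 13 genes that passed called higher and 1 lower at P7, near the shares of all genes. Among them Tbcb differed by 1.22 (0.70 to 1.75), Pfdn5 by 0.61 (0.43 to 0.79) and Tbca by -0.61 (-0.75 to -0.46). Of 8 actin and tubulin genes, whose products fold in CCT, 3 were called higher and 2 lower. Tubb4b differed by 1.03 (0.31 to 1.74) and Tubg1 by 0.95 (0.30 to 1.60), while Tuba1a, at levels of 3.53 and 2.15 in WT P3 and 0.86 and 0.79 in WT P7, was lower by 2.02. The WT P7 levels of Tuba1a were under the filter, so it passed through WT P3 alone and could be called only lower. The call of Tubb4b was lost without WT P7 set B, at 0.49. Those of Tubb4b, Tubg1 and Pfdn5 were also lost on both other scales, which are defined with the results on scaling. In KO P3, 0 of 13 prefoldin and cofactor genes and 1 of 9 actin and tubulin genes were called, the latter being Actg1, higher by 0.73 (0.58 to 0.86).

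The heat shock class held both higher and lower members at P7. Of 30 members, 19 passed the filter, and 9 were called higher and 3 lower, with a median difference of 0.44, beside 25.6% of all genes tested called higher and 10.2% lower and a median of 0.17. In KO P3, 20 passed, 4 were called higher (Hspa9, Hspa12a, Hspa5 and Hsp90ab1) and 1 lower (Hspa2), with a median of 0.20, beside 10.3% and 3.09% of all genes tested and a median of 0.13. The members that passed in neither comparison were Hspa12b, Hspa1a, Hspa1l and the 7 small heat shock genes of the table, Hspb1, Hspb2, Hspb3, Hspb6, Hspb7, Hspb8 and Hspb9. Hspa1a and Hspa1b encode the stress-inducible Hsp70 and are nearly identical, so reads could be split between them. Hspa1a was above 1 RPM in 9.9% of WT P3 cells (7 of 71, 95% exact binomial interval 4.1 to 19.3%), 4.3% of KO P3 cells (0.9 to 12.2%) and 13.2% of WT P7 cells (5.5 to 25.3%). Hspa1b was above 1 RPM in 47.9% (35.9 to 60.1%), 40.6% (28.9 to 53.1%) and 35.8% (23.1 to 50.2%) of the same groups. The intervals cover counting error over cells only. Hspb1 was above 1 RPM in 3 of 71, 10 of 69 and 2 of 53 cells.

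**Figure D3:**
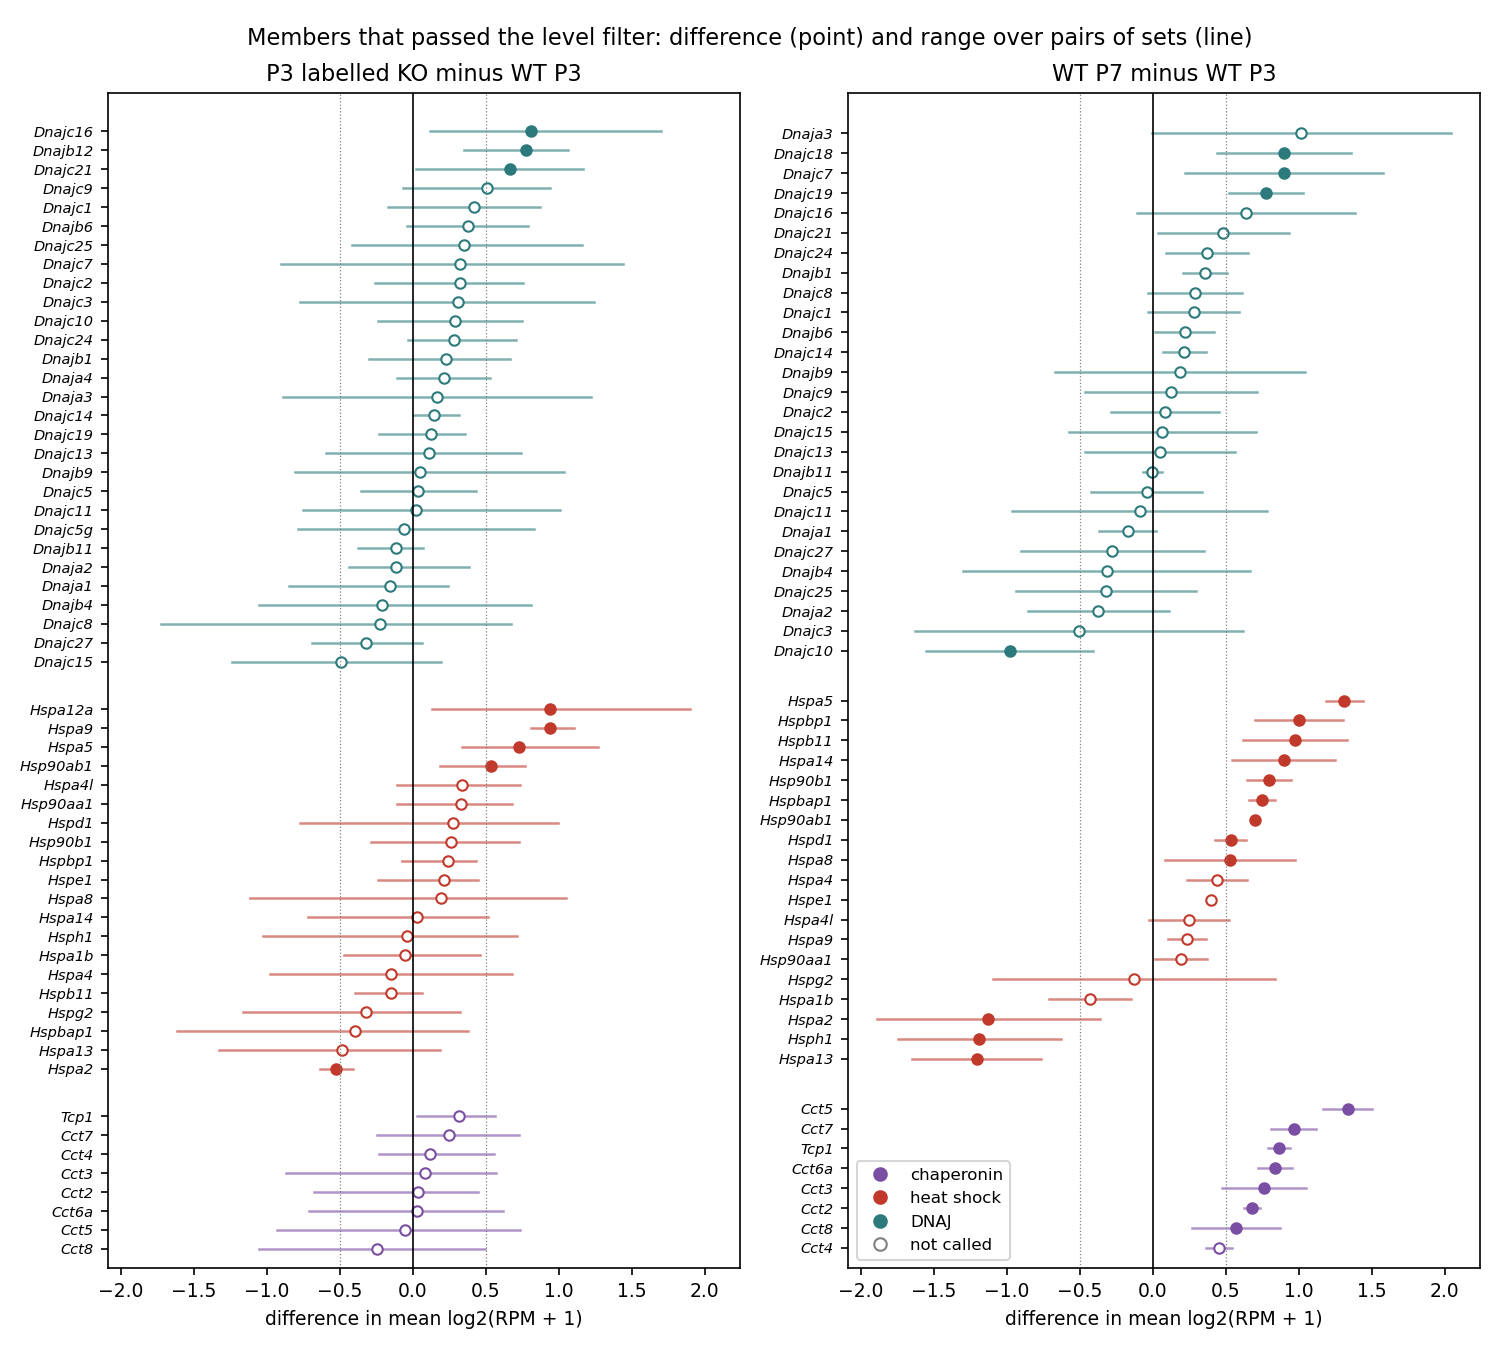
Difference in mean log2(RPM + 1) for each member that passed the level filter, for KO P3 minus WT P3 (left) and WT P7 minus WT P3 (right). Points are differences, filled where called, lines span all pairs of sets, and dotted lines mark a difference of 0.5 in either direction. On the right 19 members are filled above 0 and 4 below, on the left 7 and 1.

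The endoplasmic reticulum chaperones included the member that was highest relative to WT P3 in this class at P7. Hspa5 encodes BiP, the Hsp70 of the endoplasmic reticulum, and Hsp90b1 encodes GRP94, its Hsp90. Their promoters, and that of Dnajc3, which encodes a DNAJ partner of BiP, hold the motif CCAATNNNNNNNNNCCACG, known as the endoplasmic reticulum stress element. It was searched on both strands from 250 bases before to 50 bases after each RefSeq transcript start (build GRCm38.p6, the same assembly as mm10), where 37 of 27025 genes (0.137%) held it. Windows were found for 70 of the 85 members, and the motif was in 0 of 9 chaperonin, 2 of 24 heat shock and 1 of 37 DNAJ genes. Motif matches are in capitals, each sequence is 5′ to 3′ on the strand of its gene, and the Hspa5 and Hsp90b1 stretches end at the base before the start.
Hspa5, chr2:34771840-34772089, plus strand: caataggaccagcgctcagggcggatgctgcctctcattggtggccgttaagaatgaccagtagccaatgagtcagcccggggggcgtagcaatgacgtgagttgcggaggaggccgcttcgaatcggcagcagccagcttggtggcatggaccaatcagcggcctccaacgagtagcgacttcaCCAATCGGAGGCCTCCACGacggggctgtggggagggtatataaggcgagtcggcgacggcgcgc
Hsp90b1, chr10:86705445-86705694, minus strand: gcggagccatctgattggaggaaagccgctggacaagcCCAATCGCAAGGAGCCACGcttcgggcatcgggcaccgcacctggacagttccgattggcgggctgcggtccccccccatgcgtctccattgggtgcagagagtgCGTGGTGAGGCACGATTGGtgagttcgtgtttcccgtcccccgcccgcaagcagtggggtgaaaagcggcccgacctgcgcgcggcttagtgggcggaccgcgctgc
Dnajc3, chr14:118937827-118937845, plus strand: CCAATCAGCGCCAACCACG
A match describes letters in these windows and shows no binding.

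Hspa5 was higher in both comparisons. It was above 1 RPM in all 193 cells, with a lowest, median and highest value of 9.88, 38.6 and 178 RPM over WT P3 cells, 1.76, 67.8 and 295 RPM over KO P3 cells, and 22.4, 97.7 and 323 RPM over WT P7 cells. The single cells of the 3 groups overlapped. Its set levels were 5.31 ± 1.04 and 5.35 ± 0.78 (SD between cells) in WT P3, 6.58 ± 1.4996, 5.91 ± 0.79 and 5.68 ± 1.00 in KO P3, and 6.75 ± 1.00 and 6.53 ± 0.85 in WT P7, so no KO P3 or WT P7 set overlapped WT P3. The difference was 1.31 (1.18 to 1.44) at P7 and 0.73 (0.34 to 1.27) in KO P3. In KO P3 set A was the highest, and without it the difference was 0.47, which is under the size for a call. Hsp90b1 had levels of 6.86 and 7.10 in WT P3, 6.82, 7.33 and 7.59 in KO P3, and 7.75 and 7.81 in WT P7. It differed by 0.80 (0.64 to 0.95) at P7 and by 0.26 (-0.28 to 0.73) in KO P3.

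Other genes of the endoplasmic reticulum were lower or near WT P3 at P7. Hspa13, a small Hsp70-like ATPase of the endoplasmic reticulum, had levels of 3.25 and 2.57 in WT P3 and 1.81 and 1.60 in WT P7, a difference of -1.21 (-1.65 to -0.76). It was above 1 RPM in 80.3% of WT P3 cells (69.1 to 88.8%) and 47.2% of WT P7 cells (33.3 to 61.4%). Dnajc10, a DNAJ protein that reduces disulfide bonds, had levels of 4.83 and 4.21 in WT P3 and 3.28 and 3.81 in WT P7, a difference of -0.98 (-1.55 to -0.41). Dnajb11, a soluble partner of BiP, had levels of 3.44 and 3.34 in WT P3 and 3.40 and 3.37 in WT P7. Dnajc3, chosen for its motif after its values were seen, had levels of 3.17 and 2.23 in WT P3 and 1.54 and 2.85 in WT P7. Of the 13 genes listed for this compartment, 11 passed at P7, with 2 called higher and 2 lower (25.6% and 10.2% of all genes tested), and 12 passed in KO P3, with 3 called higher and 0 lower (10.3% and 3.09%).

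**Figure D4:**
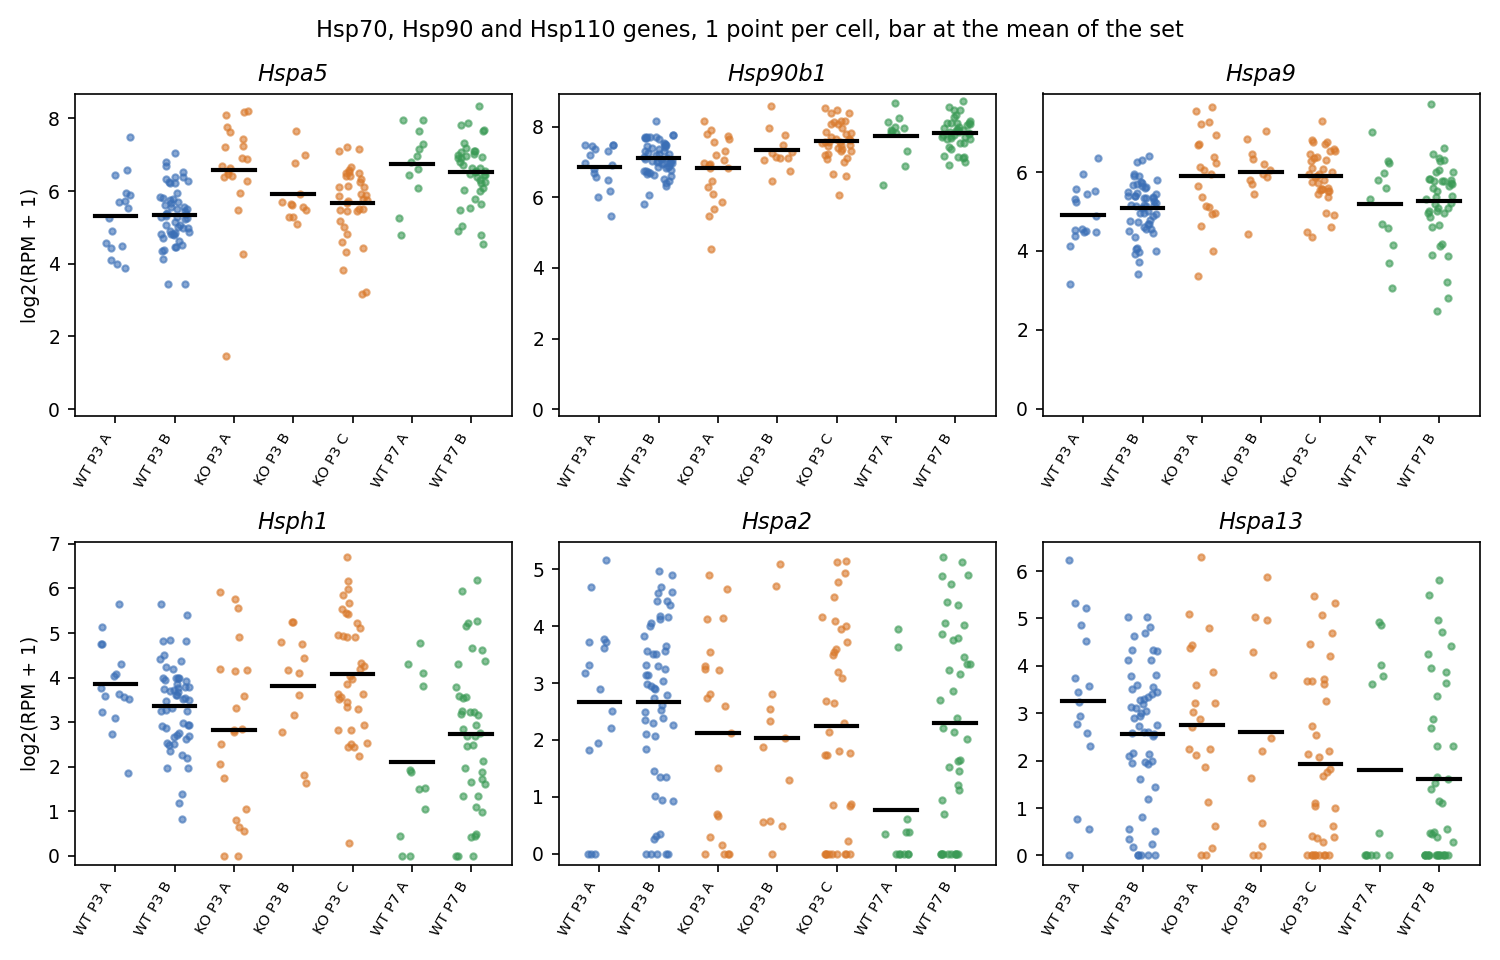
log2(RPM + 1) of 6 Hsp70, Hsp90 and Hsp110 genes (1 panel each), with 1 point per cell, cells grouped by lettered set and a bar at the mean of each set. Hspa5 and Hsp90b1 have higher bars in WT P7 than in WT P3, and Hspa9 in the 3 KO P3 sets. Hsph1, Hspa2 and Hspa13 have lower bars in WT P7, where many cells are at or near 0 for Hspa2 and Hspa13.

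The mitochondrial Hsp70 gene was higher in every KO P3 set than in the WT P3 sets. Hspa9 encodes mortalin, which pulls proteins into the mitochondrial matrix and folds them there. Its lowest, median and highest values were 7.95, 34.6 and 84.6 RPM over WT P3 cells, 9.23, 61.2 and 200 RPM over KO P3 cells, and 4.59, 40.99 and 211 RPM over WT P7 cells. The set levels were 4.91 ± 0.79 and 5.09 ± 0.67 (SD between cells) in WT P3, 5.90 ± 1.17, 6.01 ± 0.68 and 5.90 ± 0.69 in KO P3, and 5.20 ± 1.18 and 5.27 ± 1.03 in WT P7. All 3 KO P3 sets thus lay above both WT P3 sets, by 0.94 (0.81 to 1.11), while the difference at P7 was 0.23 (0.11 to 0.36). The mean RPM was 2.03 times as high in KO P3 as in WT P3. Hspa9 was the 1 of 8 members called in KO P3 whose call was kept in all 14 alternatives tried.

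The mitochondrial chaperonin genes Hspd1 (Hsp60) and Hspe1 (its lid, Hsp10) lie head to head on chromosome 1. The 215 bases between their RefSeq starts hold the heat shock element GAANNTTCNNGAA, a match to the binding site of heat shock factors, in 2 overlapping copies shown in capitals on the strand of Hspe1. This motif, searched on both strands, was in the windows of 0.662% of 27025 genes, and among the members in Hspd1, Hspe1, Hsph1 and Dnajb6. The matches of the latter genes are given as the 13 bases alone, and that of Hsph1 lies after the start.
Hspd1 and Hspe1, chr1:55087933-55088147, plus strand: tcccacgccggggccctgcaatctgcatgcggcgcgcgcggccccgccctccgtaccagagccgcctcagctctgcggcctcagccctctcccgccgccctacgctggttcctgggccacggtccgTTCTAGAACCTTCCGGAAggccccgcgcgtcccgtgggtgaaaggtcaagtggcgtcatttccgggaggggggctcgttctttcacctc
Hsph1, chr5:149636288-149636300, minus strand: TTCTGGAAAGTTC
Dnajb6, chr5:29735852-29735864, plus strand: GAATCTTCCGGAA
The shorter motif GAANNTTC, which the longer one contains, was in 9.04% of genes and in 2 of 9 chaperonin, 9 of 24 heat shock and 5 of 37 DNAJ genes. No match means only that these letters are not in the window.

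The 4 genes with the longer heat shock element differed from one another at P7. Hspd1 had levels of 3.38 and 3.48 in WT P3, 2.71, 4.03 and 4.37 in KO P3, and 3.91 and 4.01 in WT P7, a difference of 0.53 (0.43 to 0.64) at P7 that was under the size for a call, at 0.48, without WT P7 set B or without WT P3 set A. Hspe1 had levels of 4.31 and 4.33 in WT P3, 4.09, 4.76 and 4.75 in KO P3, and 4.71 and 4.73 in WT P7, a difference of 0.40 (0.39 to 0.42) that was not called. Dnajb6 differed by 0.22 (0.02 to 0.42). Hsph1, the Hsp110 that recharges cytosolic Hsp70, went the other way, with levels of 3.86 and 3.37 in WT P3, 2.83, 3.81 and 4.08 in KO P3, and 2.11 and 2.74 in WT P7, a difference of -1.19 (-1.75 to -0.63). Its lowest, median and highest values were 0.771, 11.1 and 49.6 RPM over WT P3 cells and 0, 5.42 and 72.1 RPM over WT P7 cells, and it was above 1 RPM in 98.6% (92.4 to 99.96%) and 81.1% (68.0 to 90.6%) of those cells. Of 13 genes listed as heat shock factors and their inducible targets, 10 passed at P7, with 3 called higher and 1 lower, near the 25.6% and 10.2% of all genes tested, and 11 passed in KO P3 with 0 called, beside 10.3% and 3.09%. The immediate early genes, 8 listed and 4 passing at P7, had 3 called lower there, with Fos lower by 3.33 and Dusp1 by 1.15. Their part in the Hsph1 difference was not tested.

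Among the cytosolic Hsp70 and Hsp90 genes, Hsp90ab1, Hspa8 and Hspa14 were called higher at P7 on the deposited scale, and Hspa2 and Hsph1 lower. The calls of Hsp90ab1 and Hspa8, the constitutive forms, were lost on both other scales. Hsp90ab1 had levels of 8.48 in both WT P3 sets, 8.67, 9.13 and 9.25 in KO P3, and 9.19 and 9.17 in WT P7, a difference of 0.70 (0.69 to 0.71) at P7 and 0.54 (0.18 to 0.77) in KO P3. The KO P3 call was lost without set B, at 0.48, or without set C, at 0.42. Hsp90aa1, the inducible form, differed by 0.19 (0.02 to 0.37) at P7 and 0.33 (-0.11 to 0.68) in KO P3. Hspa8, the constitutive Hsp70, had levels of 5.01 and 5.35 in WT P3 and 5.43 and 5.99 in WT P7, a difference of 0.53 (0.09 to 0.97) that was 0.25 without WT P7 set B and 0.36 without WT P3 set A. Hspa14, an Hsp70 that works at the ribosome, had levels of 4.88 and 5.21 in WT P3 and 5.75 and 6.13 in WT P7, a difference of 0.90 (0.55 to 1.25). The exchange factors Hspa4 and Hspa4l differed by 0.44 (0.24 to 0.64) and 0.25 (-0.02 to 0.53) at P7. Neither was called.

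Hspa2, the Hsp70 of meiotic and later male germ cells, was the heat shock member called lower in both comparisons. Its lowest, median and highest values were 0, 6.53 and 34.7 RPM over WT P3 cells, 0, 3.40 and 34.3 RPM over KO P3 cells, and 0, 2.08 and 36.3 RPM over WT P7 cells, with overlap between all groups. The set levels were 2.66 in both WT P3 sets, 2.13, 2.03 and 2.25 in KO P3, and 0.77 and 2.298 in WT P7. The difference was -0.53 (-0.64 to -0.41) in KO P3 and -1.12 (-1.89 to -0.36) at P7. Hspa2 was above 1 RPM in 81.7% of WT P3 cells (70.7 to 89.9%), 63.8% of KO P3 cells (51.3 to 75%) and 58.5% of WT P7 cells (44.1 to 71.9%). The P7 difference was -0.36 without WT P7 set A, and the KO P3 difference was -0.47 without KO P3 set B, both under the size for a call. Both calls were also lost with pseudocount 10, and the KO P3 call with cells weighted equally and with log2 of mean RPM.

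Smaller heat shock members called at P7 were Hspbp1, which releases nucleotide from Hsp70, at 1.00 (0.70 to 1.30), Hspb11 at 0.98 (0.62 to 1.33) and Hspbap1 at 0.75 (0.66 to 0.84). All of these calls were lost with pseudocount 10, and that of Hspbap1 also on both other scales. Hspbp1 was above 1 RPM in 42.3% of WT P3 cells (30.6 to 54.6%) and 66.0% of WT P7 cells (51.7 to 78.5%). In KO P3, Hspa12a, a distant relative of Hsp70, was called higher by 0.94 (0.13 to 1.90). It had low levels of 0.87 and 0.54 in WT P3 and 1.498, 2.44 and 1.00 in KO P3, and was above 1 RPM in 22.5% (13.5 to 34%) and 43.5% (31.6 to 56.0%) of cells. The WT P3 levels were under the filter, so Hspa12a passed through KO P3 alone and could be called only higher. Its call was lost with pseudocount 10, with log2 of mean RPM and with thinned reads.

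The count of DNAJ genes called was small and varied with the measure. Of 45 members, 29 passed in KO P3, with 3 called higher and 0 lower and a median difference of 0.16, beside 10.3% and 3.09% of all genes tested and a median of 0.13. The 3 of 29 called higher are thus at the share of all genes. At P7, 27 passed, with 3 called higher and 1 lower and a median of 0.12, beside 0.17 for all genes tested. On a scale set by widely detected genes, defined with the results on scaling, that median was -0.22 beside -0.09. The share called higher at P7, 3 of 27, was below the 25.6% of all genes tested, a description that no test backs. The P7 count was 7 without WT P7 set A and 6 without WT P3 set A, and 5 without WT P7 set B or WT P3 set B. With log2 of mean RPM 13 were called higher. Relative to reads on genes 9 of 35 were called lower, beside 3357 of 10140 genes tested. In KO P3 the count called higher was 7 without KO P3 set A or WT P3 set A and 1 without KO P3 set B. Leaving out a set leaves fewer pairs that must agree. Neither these counts nor the 13 with log2 of mean RPM have a share of all genes beside them. The 15 DNAJ members that passed in neither comparison had levels under the filter, and Dnajb8, a testis gene, was above 1 RPM in 0 of 71, 0 of 69 and 0 of 53 cells (upper bounds of the exact 95% interval 5.1%, 5.2% and 6.7%).

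The abundant general DNAJ genes were not called at P7 on the deposited scale. Dnaja2 had levels of 6.43 and 6.61 in WT P3 and 5.75 and 6.54 in WT P7, a difference of -0.37 (-0.86 to 0.11). Dnaja1, a farnesylated partner of Hsp70, had levels of 5.36 and 5.22 in WT P3 and 4.99 and 5.24 in WT P7, a difference of -0.17 (-0.37 to 0.02). Both were called lower when rescaled, Dnaja2 at -0.76 and Dnaja1 at -0.56, and relative to reads on genes, at -0.84 and -0.62. The Dnaja2 difference was 0.02 without WT P7 set A and -0.77, called lower, without set B. Dnajb1, the inducible Hsp40, differed by 0.36 (0.21 to 0.51). The members called higher at P7 were Dnajc18, a membrane protein of the endoplasmic reticulum, at 0.90 (0.44 to 1.36), Dnajc7, which binds both Hsp70 and Hsp90, at 0.90 (0.22 to 1.57), and Dnajc19, a part of the mitochondrial import motor, at 0.78 (0.52 to 1.03). The call of Dnajc7 was lost on both other scales, and those of Dnajc18 and Dnajc19 with pseudocount 10. Dnajc18 was above 1 RPM in 22.5% of WT P3 cells (13.5 to 34%) and 47.2% of WT P7 cells (33.3 to 61.4%). Its levels were 0.40 and 0.83 in WT P3, under the filter, and 1.28 and 1.76 in WT P7. It passed through WT P7 alone and could be called only higher. In KO P3 the called members were Dnajc16 at 0.81 (0.12 to 1.70), Dnajb12, an anchor for Hsp70 on the endoplasmic reticulum, at 0.77 (0.35 to 1.06), and Dnajc21, a ribosome assembly factor, at 0.66 (0.02 to 1.17). Dnajb12 had levels of 0.48 and 0.76 in WT P3, under the filter, and 1.11, 1.54 and 1.53 in KO P3. It passed through KO P3 alone and could be called only higher. The Dnajc16 difference was 0.38 without KO P3 set B and that of Dnajc21 was 0.36 without WT P3 set A.

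Partners of Hsp70 and Hsp90 were counted from lists as well. Of 19 cochaperone genes that passed at P7, 8 were called higher and 1 lower, beside 25.6% and 10.2% of all genes tested. Stub1, the ubiquitin ligase that acts on chaperone clients, had levels of 2.14 and 2.44 in WT P3 and 4.02 and 3.96 in WT P7, a difference of 1.70 (1.52 to 1.88). The Hsp90 immunophilins went opposite ways, with Fkbp4 at 1.45 (1.01 to 1.89) and Fkbp5 at -1.15 (-1.58 to -0.71). Of 18 mitochondrial and endoplasmic reticulum cofactors, 9 were called higher and 0 lower, among them the disulfide isomerases P4hb at 1.52 (1.28 to 1.76) and Pdia3 at 1.13 (0.82 to 1.45). In KO P3, St13 and Tomm34 of 20 cochaperones were called, at 0.89 (0.35 to 1.56) and 0.59 (0.07 to 1.08), and P4hb of 18 cofactors, at 0.85 (0.42 to 1.23), beside 10.3% of all genes tested called higher and 3.09% lower. Of the heat shock factor genes, Hsf1, the main one, was higher at P7 by 0.51 (0.02 to 1.00), a call kept in 5 of 11 alternatives. It was lost without WT P7 set B or WT P3 set A, with pseudocount 10, with thinned reads and on both other scales. Hsf5, a testis form, had levels of 3.53 and 2.55 in WT P3 and 0.19 and 1.27 in WT P7, lower by 2.31. Its WT P7 mean, 0.73, was under the filter, so Hsf5 passed through WT P3 alone and could be called only lower.

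These values depend on the total to which reads are relative, because the table's rows held between 8.13% and 23.01% of that total in a cell. That part differed by group: the gene rows summed to a median of 105934 RPM in WT P3, 139301 in KO P3 and 150323 in WT P7. A gene with the same share of the reads on genes therefore tends to lie higher in KO P3 and WT P7 on the deposited scale. Rescaling each cell by its median ratio to 2615 widely detected genes, with the members left out, moved the median over all genes by 0.11 in KO P3 and by 0.26 at P7. On that scale all 8 chaperonin differences at P7 were still above 0, with a median of 0.41 beside -0.09 for all genes, and in 7 of the 8 the sets did not overlap, a pattern seen upward in 21.4% and downward in 30.4% of genes tested. Cct5 at 0.94 and Cct7 at 0.57 were then called, 2 of 8, against 12.3% of 7477 genes called higher and 19.8% called lower. The heat shock class had 4 called higher and 4 lower at P7, with Hspa5 at 0.92, Hspbp1 at 0.78, Hspb11 at 0.74 and Hspa14 at 0.52 on the higher side. Hsp90b1 at 0.40, Hsp90ab1 at 0.30, Hspd1 at 0.17, Hspa8 at 0.14 and Hspbap1 were no longer called, nor were Tcp1 at 0.47 and Cct6a at 0.45. The DNAJ class had 1 higher and 3 lower, with a median of -0.22. In KO P3 the rescaled calls were Hspa9 at 0.78, Hspa12a at 0.86 and Hspa2 at -0.60, against 5.81% of 7818 genes called higher and 6.28% lower, and 0 chaperonin and 0 DNAJ members were called. Hspa5 in KO P3 was then at 0.57 with pairs from -0.02 to 1.48, and Hsp90ab1 at 0.38, both not called. The cochaperones at P7 had 5 called higher and 3 lower on that scale, and the mitochondrial and endoplasmic reticulum cofactors 3 higher and 1 lower, with Stub1 at 1.36, P4hb at 1.14, Fkbp4 at 1.06 and Fkbp5 at -1.36 among those called. Of 13 prefoldin and tubulin cofactor genes, 1 was then called higher and 2 lower at P7. Of 8 actin and tubulin genes, 0 were called higher and 2 lower.

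**Figure D5:**
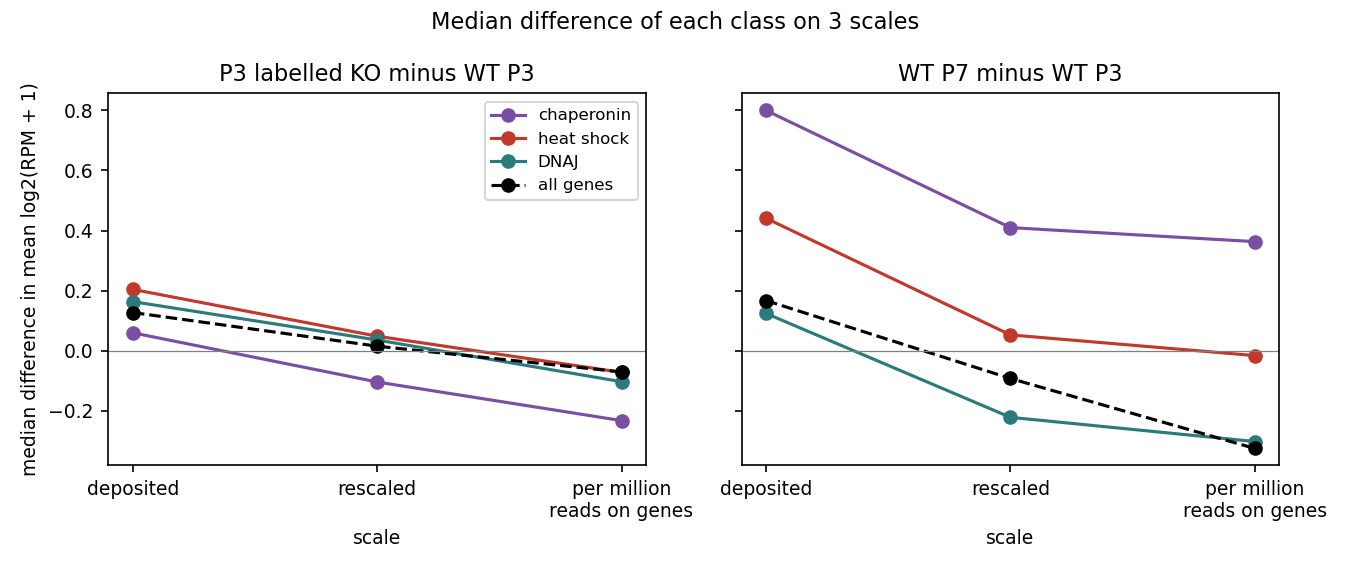
Median difference in mean log2(RPM + 1) of each class and of all genes (dashed) on 3 scales, the deposited RPM, RPM rescaled on widely detected genes, and reads relative to all reads on genes. At P7 (right) the chaperonin line stays above all genes, at 0.80, 0.41 and 0.36, while in KO P3 (left) it lies below them, at 0.06, -0.10 and -0.23.

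Relative to the reads on genes, the chaperonin median at P7 was 0.36 beside -0.33 for all genes, the heat shock median -0.02 and the DNAJ median -0.30. In KO P3 on that scale the 3 medians were -0.23, -0.07 and -0.10, beside -0.07 for all genes. Hspa5 at P7 (0.89) and Hspa9 in KO P3 (0.68) were called on that scale as well. All 23 members called at P7 and all 8 called in KO P3 kept their sign in every alternative that gave a value. At P7 the calls of Cct5, Cct7, Hspa14 and Hspa5 were kept in all 13 alternatives.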

How the data were processed

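Per the labels' protocols, cDNA of single sorted cells was amplified on a C1 chip (Fluidigm, SMARTer kit) with ERCC spike-ins, and libraries were Nextera XT. STAR 2.3.0, HTSeq 0.6.1 and the build mm10 are named in the submitters' processing notes. No source used here gives the strand, annotation or multi-mapping settings. The deposited table is named for TPM, but its values are RPM: in each cell they are whole multiples of 1 step (100.0% of values on average, tolerance 0.001), with no gene length term. The plan had allowed for either unit. The deposited table has 19642 rows, of which 84 spike-in rows and 1 ribosomal RNA precursor row were left out of the comparisons.

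The measures are defined in the report. A count test was not run, because each group is 1 sample. Alternatives were the pseudocount, the level filter, 2 other scales, weighting by cell, log2 of mean RPM, thinning to 250000 reads, and leaving out each set. Python 3.11.15, numpy 2.4.6, pandas 2.3.3 and scipy 1.17.1 were used, and the functions were tested on simulated data. Positions and transcript lengths are from GENCODE M21, promoters from RefSeq. Named genes were all CCT subunits, a list of main Hsp and Dnaj genes, every called Hsp member, up to 6 called Dnaj members each way, and up to 2 called genes each way of each partner list. The members and lists were chosen with earlier results of these data known.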

Additional observations from a re-analysis of the deposited data

How the results depend on the processing

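No paired analysis was made. The numbers in the titles name single cells, and no source used here says that a letter is shared between groups. Median spike-in sums were 11968.9, 13429.5 and 12703.2 RPM in set A of WT P3, KO P3 and WT P7. In sets B and C they were 7464.53 to 8550.14 RPM. What the sets of 1 letter share was not tested. Each group is 1 sample, so the spread between sets may be technical, and low genes at a few RPM rest on few reads in the shallow cells. Over single genes and comparisons, 2008 alternative values were computed: 1735 kept their call or stayed uncalled and moved little, 63 stayed uncalled but moved by more than the spread between sets, 105 lost a call, 102 gained one and 3 reversed with a call. Among values not called in either setting, 211 changed sign, those of Cct2, Cct5 and Hspa14 in KO P3 among them. The reversed values were Dnajb9 in KO P3 minus WT P3 at -0.56 without WT P3 set A (0.66 without WT P3 set B), Tubb4b in the same comparison at 0.65 without KO P3 set A (-0.48 without KO P3 set C), and St13 in WT P7 minus WT P3 at -0.53 relative to reads on genes. The causes were not tested. A gene that missed the level filter under an alternative has no value there. The class counts that follow have no share of all genes beside them, so they do not separate a class from all genes. That share moved too: when rescaled, the share called higher went from 25.6% to 12.3% at P7 and from 10.3% to 5.81% in KO P3.

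In KO P3 minus WT P3, DNAJ members called higher were 3, and 0 with pseudocount 10, 1 with pseudocount 0.1, 1 at a mean level of at least 2, 0 rescaled, 1 relative to reads on genes, 6 with log2 of mean RPM, and 1 to 7 without 1 set. DNAJ members called lower were 0, and 3 relative to reads on genes, 1 with thinned reads, and 0 to 2 without 1 set. Chaperonin members called higher and lower were 0 to 1 each without 1 set. Heat shock members called higher were 4, and 2 rescaled, 2 relative to reads on genes, and 2 to 6 without 1 set. Those called lower were 1, and 0 with pseudocount 10, 2 relative to reads on genes, 0 with cells weighted equally, 0 with log2 of mean RPM, and 0 to 3 without 1 set. The DNAJ median reversed to -0.10 relative to reads on genes and was 0.07 to 0.27 without 1 set. The chaperonin median reversed to -0.10 rescaled and -0.23 relative to reads on genes, and was -0.16 to 0.38 without 1 set (without KO P3 B -0.07). The heat shock median reversed to -0.073 relative to reads on genes and to -0.00143 with thinned reads, and was -0.031 (without KO P3 C) to 0.33 without 1 set.

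In WT P7 minus WT P3, DNAJ members called higher were 3, and 1 rescaled, 13 with log2 of mean RPM, 5 with thinned reads, and 5 to 7 without 1 set. DNAJ members called lower were 1, and 2 with no filter, 3 rescaled, 9 relative to reads on genes, 0 with log2 of mean RPM, and 1 to 5 without 1 set. Chaperonin members called higher were 7, and 2 rescaled, 2 relative to reads on genes, and 5 to 8 without 1 set. Heat shock members called higher were 9, and 4 with pseudocount 10, 4 rescaled, 4 relative to reads on genes, and 7 to 9 without 1 set. Those called lower were 3, and 0 with pseudocount 10, 5 relative to reads on genes, and 2 to 4 without 1 set. The DNAJ median reversed to -0.22 rescaled and -0.30 relative to reads on genes, was 0.36 with log2 of mean RPM, and 0.059 to 0.32 without 1 set. The chaperonin median was 0.68 with pseudocount 10, 0.72 with no filter, 0.41 rescaled, 0.36 relative to reads on genes, 0.88 with cells weighted equally, 0.89 with thinned reads, and 0.75 to 0.87 without 1 set. The heat shock median was 0.032 with pseudocount 10, 0.54 with pseudocount 0.1, 0.12 with no filter, 0.052 rescaled, -0.017 relative to reads on genes, 0.54 with log2 of mean RPM, and 0.40 to 0.48 without 1 set.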
